A study of Mus musculus with 4 samples.

Results

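Voltage-gated calcium (Cav) and sodium (Nav) channels were examined subunit by subunit in RNA sequencing libraries from mouse islet material. The set holds every gene whose GRCm38 symbol is Cacna1 with a letter, Cacna2d, Cacnb or Cacng with a digit, or Scn with digits and an a or b. These are 40 of the 55421 gene identifiers counted, 20 of them pore-forming and 20 auxiliary. Total RNA came from wild-type C57BL/6 mice, with 2 libraries of mice on normal chow (NCD) and 2 of mice on a high-fat diet (HFD). The labels name the material as macrophages of the islet. The sources used here do not give the age and sex of the mice, the length and fat content of the diet, any pooling or the way macrophages were separated. Whether libraries sharing a diet derive from different mice is likewise not stated, so each p-value reflects library-to-library spread that could be technical.

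The libraries held between 56740720 and 64490097 counts. Endocrine transcripts were far more abundant than macrophage transcripts. The NCD libraries held 9776 and 9896 CPM (counts scaled to a common library size) of Ins2, an insulin gene, and 9037 and 9476 CPM of Gcg, the glucagon gene, whereas all 7 macrophage markers together summed to 541 and 516 CPM, led by Cd68 at 148 and 145 CPM. In HFD the macrophage sum was 462 and 461 CPM, with 4 of the 7 markers called lower and 1, Csf1r, higher. Macrophages alone are therefore not borne out by these markers as the source of the RNA, and the libraries are called by diet only. Of 10 beta cell markers 8 fell in HFD, Iapp among them, and of 6 alpha cell markers 4 rose. Summed markers of B cells, T cells, endothelial cells, fibroblasts, smooth muscle and pericytes, adipocytes and acinar cells were higher in both HFD libraries. In such bulk RNA, fewer cells of a type and less RNA per cell cannot be told apart.

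Both channel families are membrane proteins that open when a cell depolarises. In a Cav channel a large alpha1 protein forms the pore and sets the current type, a cytoplasmic beta subunit brings it to the membrane and tunes its gating, and an extracellular alpha2delta subunit raises its surface level. In islet endocrine cells calcium entering through these pores triggers the release of hormone granules. Nav channels carry the fast upstroke of action potentials, and their beta subunits are single-pass proteins that modulate gating and act in cell adhesion.

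Of the 40 members 35 had enough counts to be tested, and 15 differed between the diets. Called genes were 7 lower and 8 higher in HFD (edgeR quasi-likelihood test, Benjamini-Hochberg adjusted p under 0.05), or 42.9% of the members tested against 32.4% of all 21563 genes tested. Over all genes 17.9% were called higher and 14.5% lower. Libraries of the diets did not overlap for 24 tested members, 13 of them higher and 11 lower in HFD, against 67.7% of all genes tested, 34.5% higher and 33.2% lower. The median log2 change was 0.04 over the tested members and 0.00 over all genes tested. The 7 that fell included the abundant Cacna1d, Cacna1c, Cacna1a and Cacna2d1, and each fell by less than 2-fold. The members that rose started low, at mean NCD levels under 3 CPM, and rose 3.04-fold to 5.78-fold. Calls of at least 2-fold thus numbered 8 higher and 0 lower among members, against 2160 of all genes tested higher (10%) and 287 lower (1.33%). The lowest count of any called member in any library was 18, for Scn4a. Both HFD libraries and NCD replicate 1 bear on the rises: fewer members were called higher on leaving out any of them. Fewer genes were called higher over the whole table then too.

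**Figure D1:**
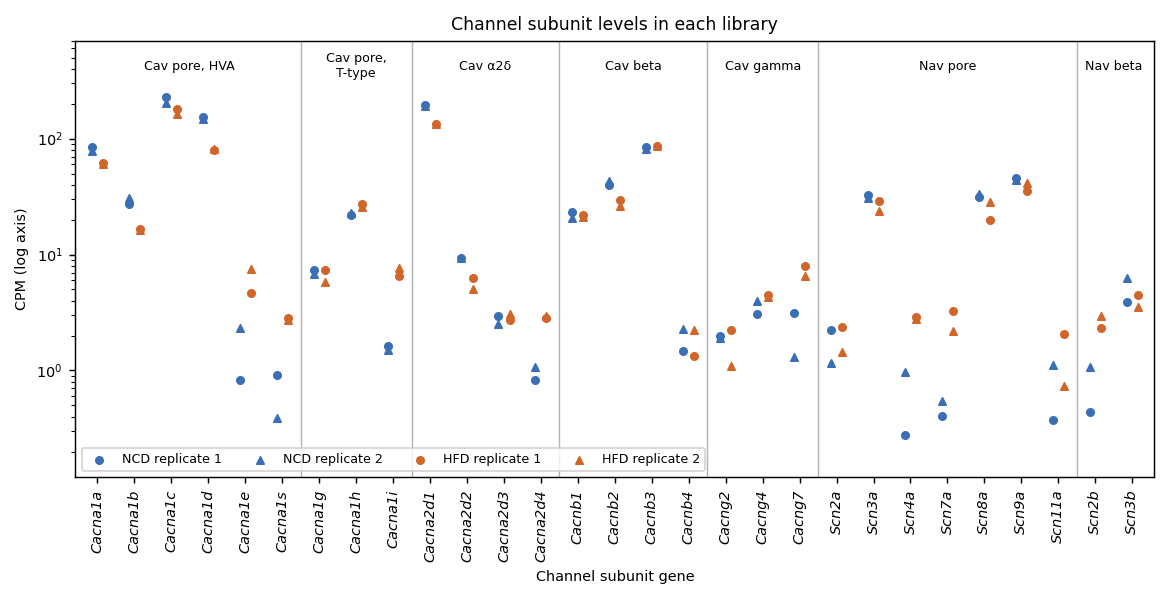
Level in CPM, on a log axis, of 29 subunit genes averaging 1 CPM or more in either diet, by subunit class, where HVA stands for high-voltage-activated; circles are replicate 1 and triangles replicate 2 of each diet. Cacna1d falls from 154 and 148 CPM to 79.1 and 80.8 CPM, while Cacna1i rises from 1.61 and 1.496 CPM to 6.58 and 7.68 CPM.

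Sequence at the starts of these genes differed between the members that fell and those that rose, a feature that the choice of genes did not use. RefSeq start windows of 300 bases on GRCm38.p6 were at hand for 30 of the 40 members, several with more than 1 start, and the CpG-richest window of each gene was taken, a choice made after the values were seen. In the 6 fallen members with a window it held 35 to 63 CpG dinucleotides, with a median of 42.5, and in the 7 risen members with a window 2 to 23, with a median of 9. The ranges of these richest windows did not overlap. Each risen member with a window had only 1, whereas among the fallen ones Cacna1c had 3 and Cacna1d and Cacnb2 had 2 each. Taking the richest window thus favours a high count in the fallen members. Over all genes tested the medians lay closer together, at 22 for genes called lower and 17 for genes called higher. The fallen members were also the more abundant ones, so among the called members CpG content and level go together and cannot be told apart. Members that were not called did not all share this link. The abundant Scn8a held 38 CpG and the abundant Scn9a 9, while the scarce Scn11a held 3 and the scarce Cacna2d3 41. The windows shown are the CpG-richest of the pore gene and the auxiliary gene that fell with the smallest p-values, and of the risen members with the most CpG among them and with the largest fold change, with CpG in capitals. They lie at chr14:30353437-30353736 on the minus strand, chr5:15934441-15934740 on the plus strand, chr15:80286988-80287287 on the plus strand and chr2:66784861-66785160 on the minus strand, in the order given.
Cacna1d, 63 CpG, fell: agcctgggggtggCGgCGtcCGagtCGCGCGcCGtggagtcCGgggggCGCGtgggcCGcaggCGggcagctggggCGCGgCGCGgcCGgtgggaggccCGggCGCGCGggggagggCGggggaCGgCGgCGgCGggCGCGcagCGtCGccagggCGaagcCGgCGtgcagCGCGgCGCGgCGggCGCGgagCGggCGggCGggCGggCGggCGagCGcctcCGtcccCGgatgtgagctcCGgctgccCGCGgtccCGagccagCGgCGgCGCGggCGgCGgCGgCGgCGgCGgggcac
Cacna2d1, 42 CpG, fell: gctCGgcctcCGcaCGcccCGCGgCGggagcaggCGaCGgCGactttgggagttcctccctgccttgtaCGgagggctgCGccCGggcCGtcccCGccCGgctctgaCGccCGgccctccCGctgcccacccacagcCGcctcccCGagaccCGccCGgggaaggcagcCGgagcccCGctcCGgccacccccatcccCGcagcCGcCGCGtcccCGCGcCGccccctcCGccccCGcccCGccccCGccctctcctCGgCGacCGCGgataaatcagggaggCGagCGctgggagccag
Cacna1i, 23 CpG, rose: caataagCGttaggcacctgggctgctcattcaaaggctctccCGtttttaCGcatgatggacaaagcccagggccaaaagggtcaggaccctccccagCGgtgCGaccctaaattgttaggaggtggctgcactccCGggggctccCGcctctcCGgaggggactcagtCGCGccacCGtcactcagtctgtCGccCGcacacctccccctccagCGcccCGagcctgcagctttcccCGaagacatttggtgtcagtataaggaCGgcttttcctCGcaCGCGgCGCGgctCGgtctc
Scn7a, 3 CpG, rose: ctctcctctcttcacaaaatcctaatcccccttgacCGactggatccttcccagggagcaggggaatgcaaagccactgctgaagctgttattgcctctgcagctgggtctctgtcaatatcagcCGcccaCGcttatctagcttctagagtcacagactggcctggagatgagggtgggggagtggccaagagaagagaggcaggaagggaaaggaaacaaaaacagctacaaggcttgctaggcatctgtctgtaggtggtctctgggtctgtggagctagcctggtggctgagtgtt
Which of several starts islet cells use was not measured in these counts. Cacna1d and Cacnb2 each have a second window with 4 CpG and Cacna1c has others with 7 and 3, all within the range of the risen members. Among all 41 member windows, 16 held GGGCGG, the core of a GC box, on either strand (39%), against 35.7% of all 32851 windows. TATAAA, the core of a TATA box, stood in 2 member windows (4.88%) and in 13.6% of all. No member window held the E-box CACGTG, which 7.15% of all windows held.

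**Figure D2:**
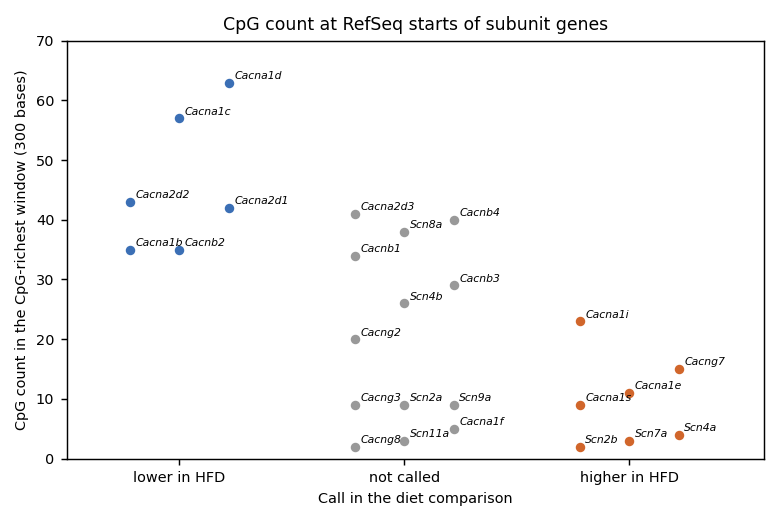
Number of CpG dinucleotides in the CpG-richest RefSeq start window of 300 bases for each tested member that has a window, split by its call in the diet comparison. Fallen members hold 35 to 63 CpG and risen members 2 to 23, while members that were not called span 2 to 41.

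The high-voltage-activated pores, which open at strong depolarisation, fell where they were abundant. Cacna1d, an L-type pore that opens at lower voltages than its relatives, stood at 154 and 148 CPM in the NCD libraries and at 79.1 and 80.8 CPM in the HFD libraries. Its means were 151 ± 4.51 and 79.9 ± 1.18 CPM (SD, n = 2), a log2 change of -0.92 (SE 0.05; edgeR adjusted p = 0.000263). This was the called member with the smallest adjusted p, and it kept its call under all 12 alternative settings. The gene Chdh overlaps 4.67% of the Cacna1d exon bases on the other strand, with 160 and 261 counts in NCD and 525 and 509 in HFD. Cacna1c, the other L-type pore of endocrine and muscle cells, stood at 227 and 204 CPM in NCD and at 182 and 165 CPM in HFD. Its log2 change was -0.31 (SE 0.08; edgeR adjusted p = 0.0280), and the call was lost without NCD replicate 1 and without HFD replicate 2 (edgeR adjusted p = 0.0903 and 0.105). The libraries of the diets did not overlap for either gene.

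The pores that serve transmitter release at synapses moved the same way. Cacna1a, the P/Q-type pore, stood at 85.3 and 77.7 CPM in NCD and at 61.7 and 60.1 CPM in HFD, a log2 change of -0.42 (SE 0.07; edgeR adjusted p = 0.00833). Cacna1b, the N-type pore, stood at 27.3 and 30.5 CPM in NCD and at 16.6 and 16.3 CPM in HFD, a log2 change of -0.81 (SE 0.10; edgeR adjusted p = 0.00275). Both kept their calls under all 12 alternatives. Per kilobase of exon, the Cacna1c to Cacna1d ratio was 0.874 and 0.821 in NCD and 1.37 and 1.21 in HFD. On this scale the order of the L-type pair was thus reversed in both HFD libraries, whereas in CPM Cacna1c led in every library. The ratio of Cacna1d to Cacna1a went from 1.64 and 1.73 to 1.16 and 1.22. That of Cacna1c to Cacna1a shifted less and the other way, from 1.43 and 1.42 to 1.59 and 1.48. The Cacna1d share of the summed high-voltage-activated pores was 36.6% and 37.4% in NCD and 27.7% and 29.3% in HFD. Levels per kilobase use the union of all annotated exons, so a gene whose used isoform is short reads too low.

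The other high-voltage-activated pores were scarce, and those that changed rose. Cacna1e, the R-type pore, stood at 0.822 and 2.33 CPM in NCD and at 4.70 and 7.53 CPM in HFD, a log2 change of 1.95 (SE 0.53; edgeR adjusted p = 0.0394). The NCD libraries differed widely from each other, the log2 change was 2.88 without NCD replicate 2, and the call was lost without the count filter, without NCD replicate 1 and without HFD replicate 2 (edgeR adjusted p = 0.0596, 0.0545 and 0.144). Cacna1s, the L-type pore that serves as voltage sensor of skeletal muscle, stood at 0.915 and 0.386 CPM in NCD and at 2.83 and 2.70 CPM in HFD, a log2 change of 2.08 (SE 0.46; edgeR adjusted p = 0.0210). It lost its call without either HFD library (edgeR adjusted p = 0.0699 and 0.0656), and its log2 change was 2.83 without NCD replicate 1. An antisense gene, Gm37759, covers 20% of the exon bases of Cacna1s and had 18 and 10 counts in NCD and 93 and 96 in HFD. Since the sources used here do not give the strand setting of the counting, reads of the pair cannot be told apart. Cacna1f, the L-type pore of the retina, reached at most 0.667 CPM in all 4 libraries, which overlapped.

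T-type pores, which open near the resting potential, did not share the fall. Cacna1i stood at 1.61 and 1.496 CPM in NCD and at 6.58 and 7.68 CPM in HFD, a log2 change of 2.20 (SE 0.20; edgeR adjusted p = 0.00106), and kept its call under all 12 alternatives. Cacna1h, the most abundant T-type pore, stood at 22.1 and 22.8 CPM in NCD and at 27.4 and 25.9 CPM in HFD. Its libraries did not overlap, but it did not pass (log2 change 0.25, SE 0.09; edgeR adjusted p = 0.0803), though it did by DESeq2's Wald test (DESeq2 adjusted p = 0.0140) and when testing was limited to genes averaging 1 CPM or more (edgeR adjusted p = 0.0482). Cacna1g stood at 7.43 and 6.79 CPM in NCD and at 7.30 and 5.81 CPM in HFD (edgeR adjusted p = 0.674). The Cacna1i share of the summed T-type pores per kilobase went from 5.18% and 4.81% to 15.9% and 19.5%.

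The alpha2delta subunits split in the same way by level. Cacna2d1, the target of gabapentin drugs, stood at 194 and 191 CPM in NCD and at 134 and 133 CPM in HFD. Its log2 change was -0.53 (SE 0.04; edgeR adjusted p = 0.000838), and it kept its call under all 12 alternatives. Cacna2d2 stood at 9.34 and 9.41 CPM in NCD and at 6.27 and 5.09 CPM in HFD, a log2 change of -0.72 (SE 0.16; edgeR adjusted p = 0.0232). That call was lost on leaving out NCD replicate 1, NCD replicate 2 or HFD replicate 2, where the edgeR adjusted p was 0.0738, 0.0735 and 0.0793. Cacna2d4, an alpha2delta subunit known from the retina, rose from 0.822 and 1.08 CPM to 2.83 and 2.95 CPM, a log2 change of 1.60 (SE 0.29; edgeR adjusted p = 0.0105; 0.0510 without HFD replicate 2). Cacna2d3 stood at 2.95 and 2.54 CPM in NCD and at 2.75 and 3.09 CPM in HFD, with overlap.

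Among the beta subunits the most abundant did not move with the pores. Cacnb3 stood at 85.5 and 82.3 CPM in NCD and at 85.8 and 86.1 CPM in HFD, a log2 change of 0.04 (SE 0.06; edgeR adjusted p = 0.677). Cacnb2, the beta subunit known from heart muscle and beta cells, fell from 39.9 and 43.5 CPM to 29.3 and 26.4 CPM. Its log2 change was -0.58 (SE 0.09; edgeR adjusted p = 0.00662) and held under all 12 alternatives. Cacnb1, the beta subunit of skeletal muscle, stood at 23.4 and 20.5 CPM in NCD and at 22.1 and 21.2 CPM in HFD. Cacnb4, a brain beta subunit, stood at 1.47 and 2.28 CPM in NCD and at 1.34 and 2.24 CPM in HFD. Both overlapped and did not pass (edgeR adjusted p = 0.909 and 0.916). An antisense gene, A430018G15Rik, covers 16% of the Cacnb4 exon bases.

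Gamma subunits were scarce. Cacng1 belongs to the skeletal muscle channel, whereas Cacng2, Cacng3, Cacng4, Cacng7 and Cacng8 encode proteins best known as partners of AMPA-type glutamate receptors. Cacng7 stood at 3.12 and 1.32 CPM in NCD and at 8.03 and 6.57 CPM in HFD, a log2 change of 1.72 (SE 0.42; edgeR adjusted p = 0.0284). This was the only gamma gene called, and the call was lost without either HFD library (edgeR adjusted p = 0.0911 and 0.0607). Without NCD replicate 1 its log2 change was 2.46. Cacng4 stood at 3.06 and 3.96 CPM in NCD and at 4.47 and 4.33 CPM in HFD (edgeR adjusted p = 0.307). Cacng2 stood at 1.97 and 1.91 CPM in NCD and at 2.23 and 1.10 CPM in HFD, with overlap. Cacng1, Cacng3 and Cacng8 reached at most 1.11 CPM in any library, with edgeR adjusted p of 0.715, 0.158 and 0.445. Cacng6 had 0 to 8 counts per library and Cacng5 had 0 counts in all 4.

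**Figure D3:**
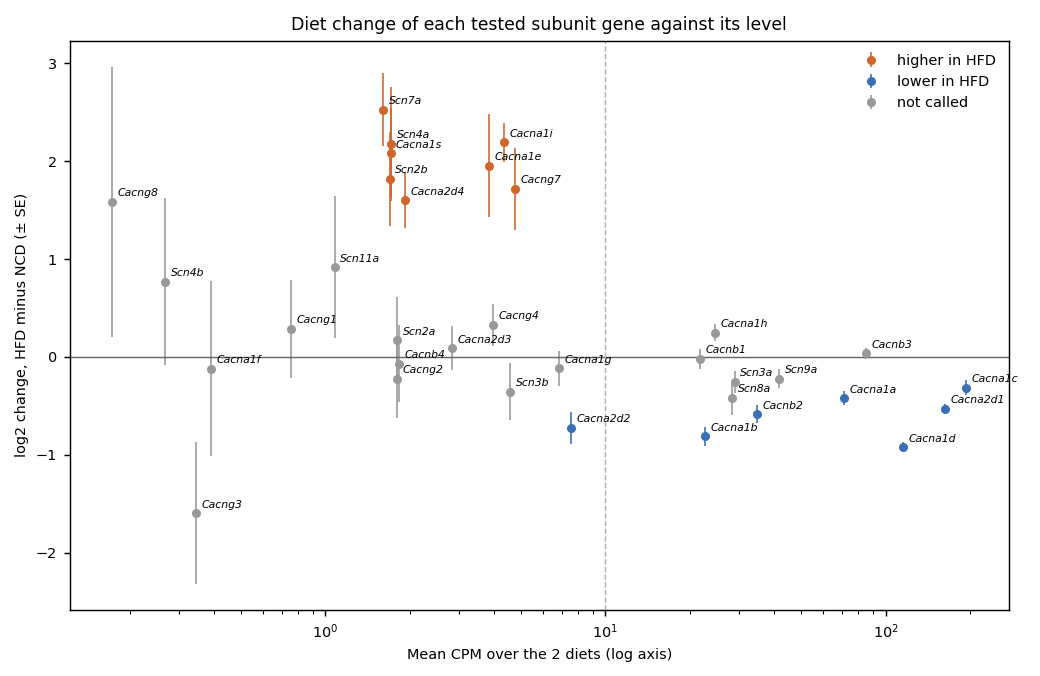
Log2 change from NCD to HFD (with SE, from edgeR) of 34 tested members against their mean CPM over both diets on a log axis; orange points were called higher, blue points lower and grey points neither, and the dashed line marks 10 CPM. Of the members right of the line 6 are called lower and none higher, and left of it 8 are called higher and 1 lower.

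Level and direction went together across the members, at a split of 10 CPM that was set after the levels were seen. Of the 13 members with a mean of at least 10 CPM over the 4 libraries, 6 were called lower and 0 higher by edgeR. Their median log2 change was -0.31. Cacna1h was higher at an unadjusted edgeR p under 0.05. By DESeq2's Wald test not all calls at this level were lower, Cacna1h being called higher. Among all genes at that level 45.1% were called, 24.6% lower and 20.5% higher. Of the 22 tested members under 10 CPM, 8 were called higher and 1, Cacna2d2, lower, with a median log2 change of 0.55. Among all genes tested under 10 CPM 18.7% were called, 15.1% higher and 3.59% lower, so scarce genes rose more often than they fell across the whole table too.

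Nav pores that dominate the islet did not pass the test. Scn9a, the leading Nav pore of these libraries and of mouse beta cells, stood at 45.8 and 44.1 CPM in NCD and at 35.4 and 41.5 CPM in HFD, a log2 change of -0.22 (SE 0.10; edgeR adjusted p = 0.140). Scn3a, known from alpha cells and embryonic neurons, stood at 32.4 and 30.6 CPM in NCD and at 28.8 and 24.0 CPM in HFD, a log2 change of -0.25 (SE 0.11; edgeR adjusted p = 0.149). Scn8a, a pore of central and peripheral neurons, stood at 31.4 and 33.3 CPM in NCD and at 20.0 and 28.5 CPM in HFD, a log2 change of -0.42 (SE 0.17; edgeR adjusted p = 0.131). For each of the 3 genes both HFD libraries lay below both NCD libraries, as was the case for 33.2% of all genes tested. The Scn8a value rests on HFD replicate 1, the lower library: without HFD replicate 2 the gene passed as lower (edgeR adjusted p = 0.0164), as it did in DESeq2's Wald test (DESeq2 adjusted p = 0.0412).

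The Nav pores that rose are scarce here and known from other tissues. Scn7a, a sodium channel of glia and other non-excitable cells that senses sodium rather than voltage, stood at 0.403 and 0.547 CPM in NCD and at 3.28 and 2.21 CPM in HFD. Its log2 change of 2.53 (SE 0.37; edgeR adjusted p = 0.00550) was the largest among called members, and it kept its call under all 12 alternatives. Scn4a, the skeletal muscle pore, stood at 0.279 and 0.965 CPM in NCD and at 2.88 and 2.76 CPM in HFD, a log2 change of 2.18 (SE 0.58; edgeR adjusted p = 0.0384). It lost its call without either HFD library and without the count filter (edgeR adjusted p = 0.104, 0.101 and 0.0564). Its size rests on the NCD libraries, with a log2 change of 1.54 without NCD replicate 1 and 3.32 without NCD replicate 2. Scn2a, a brain pore, stood at 2.23 and 1.16 CPM in NCD and at 2.37 and 1.45 CPM in HFD. Scn11a, a pore of pain-sensing neurons, stood at 0.372 and 1.13 CPM in NCD and at 2.08 and 0.742 CPM in HFD. Both overlapped between the diets. Scn1a, a pore of brain interneurons, had 0 to 11 counts per library and was not tested, and Scn10a had 0 counts in all 4. A count of 0 allows a level of up to 0.186 to 0.212 CPM, taking a floor of 12 counts per library.

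The Nav beta subunits described here were scarce. Scn2b rose from 0.434 and 1.06 CPM to 2.33 and 2.97 CPM, a log2 change of 1.82 (SE 0.48; edgeR adjusted p = 0.0371). That call was lost without the count filter (edgeR adjusted p = 0.0542) and on leaving out NCD replicate 1, HFD replicate 1 or HFD replicate 2, where the edgeR adjusted p was 0.0559, 0.0750 and 0.135. Its log2 change was 2.595 without NCD replicate 2. Scn3b stood at 3.92 and 6.34 CPM in NCD and at 4.49 and 3.53 CPM in HFD, with overlap, and Scn4b reached at most 0.517 CPM in any library.

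Summed by class, pore-forming transcripts fell in both HFD libraries and auxiliary transcripts less so. These sums carry no test, and an exact permutation test of 2 against 2 libraries could not go below p = 0.3333. Pore-forming genes summed to 640 and 606 CPM in the NCD libraries and to 484 and 473 CPM in the HFD ones, 23.2% lower. Auxiliary genes summed to 389 and 391 CPM in the NCD libraries and to 331 and 330 CPM in the HFD ones, 15.2% lower. Per kilobase of exon the pores summed to 45.1 and 43.1 in NCD and to 34.6 and 33.8 in HFD, while the auxiliary genes, at 60.5 and 61.9 in NCD and 60.8 and 62.7 in HFD, overlapped. The long and abundant Cacna2d1 weighs more in the CPM sum, and short genes such as Cacnb3 weigh more per kilobase.

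By class the high-voltage-activated pores summed to 496 and 463 CPM in the NCD libraries and to 347 and 332 CPM in the HFD ones, and the alpha2delta subunits to 207 and 204 CPM and then to 146 and 144 CPM. These classes were thus 29.2% and 29.5% lower. The beta subunits were 8.13% lower, from 150 and 149 CPM to 139 and 136 CPM. Per kilobase, the ratio of beta subunits to Cav pores was 0.811 and 0.827 in NCD and 1.07 and 1.10 in HFD. That of alpha2delta subunits to Cav pores shifted less, from 0.470 and 0.492 in NCD to 0.454 and 0.466 in HFD, without overlap. Nav pores summed to 113 and 112 CPM in the NCD libraries and to 95.1 and 101 CPM in the HFD ones. T-type pores, at 31.1 CPM in both NCD libraries and 41.3 and 39.4 CPM in HFD, and gamma subunits, at 9.72 and 8.24 CPM and then 15.7 and 13.7 CPM, were higher.

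**Figure D4:**
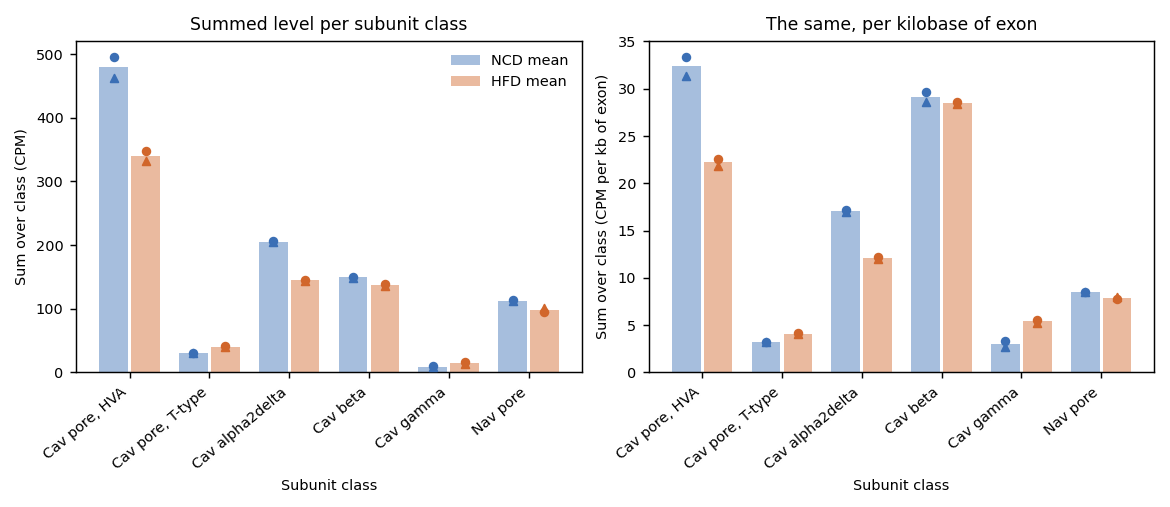
Summed level of 6 subunit classes per library, in CPM at the left and in CPM per kilobase of exon at the right; bars are means of a diet, and circles and triangles are its replicates 1 and 2. High-voltage-activated pores and alpha2delta subunits are lower in both HFD libraries on both scales, whereas beta subunits are level per kilobase, at 29.7 and 28.6 in NCD and 28.6 and 28.4 in HFD.

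Per kilobase of exon, the order of the 5 leading Cav members changed with diet. In NCD it ran from Cacnb3 at 20.9 ± 0.562 CPM per kb through Cacna2d1 at 15.5 ± 0.130 and Cacna1d at 11.99 ± 0.357 to Cacna1c at 10.2 ± 0.756 and Cacna1a at 7.14 ± 0.477 (SD, n = 2). In HFD it ran from Cacnb3 at 21.4 ± 0.0505 through Cacna2d1 at 10.7 ± 0.0413 and Cacna1c at 8.17 ± 0.566 to Cacna1d at 6.33 ± 0.0937 and Cacna1a at 5.34 ± 0.102. Cacna1c thus passed Cacna1d on this scale, by more than the library spread of either, while the others of these 5 kept their places. In CPM, without division by exon length, Cacna1c was above Cacna1d in both diets. Its mean was 215 against 151 CPM in NCD and 173 against 79.9 CPM in HFD. The spread between libraries does not cover error in the exon lengths used.

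**Figure D5:**
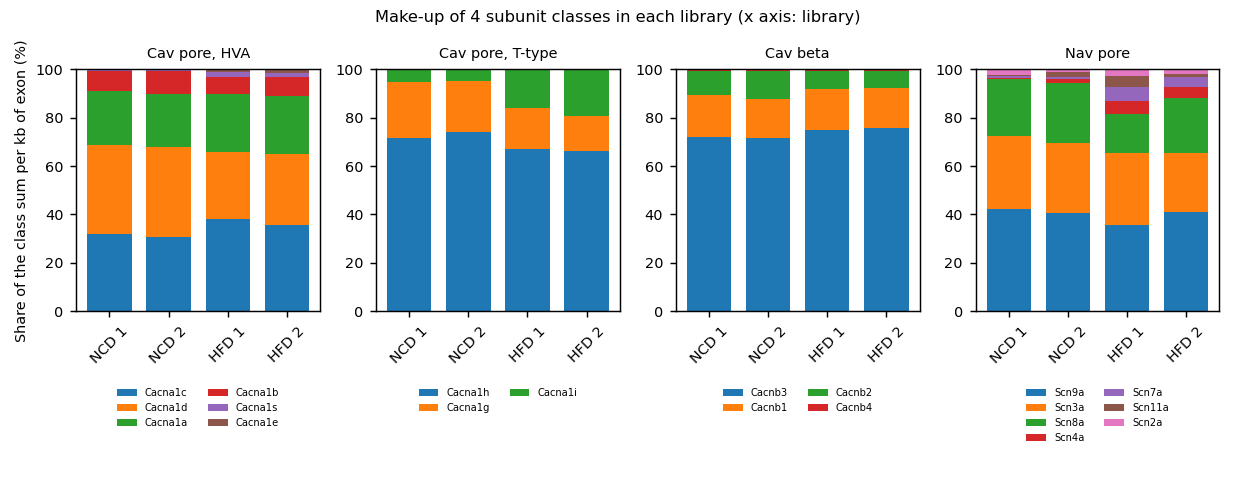
Share of each member, in percent, in the summed level per kilobase of exon of 4 subunit classes (high-voltage-activated and T-type Cav pores, Cav beta subunits and Nav pores) in each of the 4 libraries; members with a mean share under 0.5% are drawn without a legend entry. The Cacna1d share of the high-voltage-activated pores falls from 36.6% and 37.4% to 27.7% and 29.3%, and Cacnb3 holds 71.8% to 75.6% of the Cav beta sum in all 4 libraries.

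Several members lie side by side in the genome, and those described on chromosomes 6 and 2 did not move as a block. On chromosome 6 Cacna1c (118587240 to 119196418) and Cacna2d4 (119236526 to 119352407) are 40.1 kb apart on opposite strands, and the first fell while the second rose. On chromosome 2 Scn7a (66673425 to 66784914) begins 38.5 kb after the end of Scn9a (66480080 to 66634962). Scn7a rose, whereas Scn9a had a log2 change of -0.22 and Scn3a, in the same cluster, one of -0.25. On chromosome 7 Cacng7 rose beside Cacng8 and Cacng6, which had at most 16 counts in any library. Cacng8 had 11 and 0 counts in NCD and 16 and 15 in HFD and was not called. Cacng6 had 4 and 0 counts in NCD and 4 and 8 in HFD and was not tested. Both were thus higher in HFD, at counts too low to say whether they moved with Cacng7. These positions are those of GENCODE M21 on GRCm38.

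Genes that bind or complement the channels moved in both directions, in lists drawn up with earlier results of these data known. Of 18 calcium channel partners 5 rose and 3 fell, or 44.4%, with a median log2 change of 0.14. That share is near the background, since 32.4% of all genes tested and 45.1% of those at 10 CPM or more were called, so the values that follow describe single genes. Stac2, an adaptor that binds Cav pores, rose from 1.36 and 1.46 CPM to 11.9 and 13.0 CPM (log2 change 3.14, SE 0.16; edgeR adjusted p = 0.000205). Gem, a small GTPase of the RGK family that inhibits Cav currents, rose from 20.2 and 22.9 CPM to 62.2 and 60.4 CPM (edgeR adjusted p = 0.000271). Rrad, of the same family, rose from 2.88 and 3.59 CPM to 12.6 and 10.1 CPM (edgeR adjusted p = 0.00200). Rem1, a further RGK gene picked after its values were seen, rose from 1.78 and 2.19 CPM to 7.53 and 5.99 CPM (edgeR adjusted p = 0.00332). The remaining RGK gene, Rem2, stood at 4.64 and 4.30 CPM in NCD and at 5.38 and 3.99 CPM in HFD. Rimbp2, which tethers Cav pores at release sites, fell from 189 and 174 CPM to 126 and 121 CPM (edgeR adjusted p = 0.00211).

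Of 8 sodium channel partners 2 rose and 3 fell, or 62.5% against 32.4% of all genes tested and 45.1% at 10 CPM or more, with a median log2 change of -0.45. Ank2, an ankyrin scaffold, fell from 439 and 403 CPM to 258 and 243 CPM (edgeR adjusted p = 0.000669), and Sptbn4, a spectrin that anchors Nav channels in neurons, from 211 and 198 CPM to 138 and 142 CPM (edgeR adjusted p = 0.00129). Fgf11, of the intracellular FGF family that binds Nav tails, rose from 1.02 and 1.01 CPM to 5.15 and 5.46 CPM (edgeR adjusted p = 0.00106). Nedd4, a ubiquitin ligase that acts on channels among other targets, rose from 239 and 238 CPM to 333 and 335 CPM (edgeR adjusted p = 0.000681). Of the 4 genes of the sodium leak channel 3 fell, where 14.5% of all genes tested and 24.6% at 10 CPM or more did. Its pore gene Nalcn fell from 42.9 and 42.5 CPM to 24.9 and 25.7 CPM (edgeR adjusted p = 0.00122), its large subunit Unc80 from 279 and 249 CPM to 157 and 149 CPM (edgeR adjusted p = 0.000937) and Unc79 from 44.9 and 45.7 CPM to 34.5 and 32.6 CPM (edgeR adjusted p = 0.00774).

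Of 24 genes of calcium stores, pumps and store-operated entry 23 were tested, 6 fell and 2 rose, with a median log2 change of -0.18. This is 34.8% of those tested, near the 32.4% of all genes. Atp2a2, the main pump that loads calcium into the endoplasmic reticulum, fell from 2440 and 2468 CPM to 1308 and 1324 CPM (log2 change -0.90, SE 0.03; edgeR adjusted p = 5.44e-05). Atp2a3, a related pump, fell from 535 and 510 CPM to 276 and 277 CPM (edgeR adjusted p = 0.000139), and Slc8a1, a sodium-calcium exchanger, from 90.4 and 91.5 CPM to 69.9 and 62.8 CPM (edgeR adjusted p = 0.00689). Atp2b4, a plasma membrane calcium pump, rose from 45.4 and 40.6 CPM to 71.2 and 62.9 CPM (edgeR adjusted p = 0.00539). The other rise was Ryr1, the calcium release channel of skeletal muscle, with 0 counts in both NCD libraries and 25 and 31 counts in HFD, at least 2.51-fold higher than the floor of 12 counts per library. It is outside the rule for named genes and was picked after its values were seen. Its call was lost without HFD replicate 1 (edgeR adjusted p = 0.0706), without HFD replicate 2 (0.105) and with the replicate block (0.0568).

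Markers of cell types moved beside these changes, and their part in them was not tested. The 10 beta cell markers summed to 17606 and 18083 CPM in the NCD libraries and to 13665 and 14305 CPM in the HFD ones, with a median log2 change of -0.62 over the list, and the 6 alpha cell markers to 9340 and 9794 CPM and then to 13273 and 13953 CPM. Beside the rises of the scarce members, 5 fibroblast markers went from 63.0 and 64.2 CPM to 990 and 1025 CPM, with all 5 called higher. The 4 B cell markers went from 21.4 and 20.0 CPM to 137 and 144 CPM and the 8 of smooth muscle and pericytes from 158 and 152 CPM to 377 and 382 CPM. Summed markers of Schwann cells and skeletal muscle overlapped between the diets. The 7 Schwann cell markers summed to 21.4 and 25.2 CPM in the NCD libraries and to 18.2 and 22.0 CPM in the HFD ones, with 1, Sox10, called higher. The 6 peripheral neuron markers summed to 8.69 and 8.43 CPM and then to 9.03 and 11.7 CPM, and of the 4 tested Hand2 had the smallest edgeR adjusted p, 0.0643. The 4 skeletal muscle markers stayed at 1.26 and 1.95 CPM (NCD) and at 1.49 and 1.38 CPM (HFD), with Myh1 at 0 counts in all 4 libraries, while Cacna1s, Scn4a and Ryr1 rose.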

How the data were processed

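RNA of 4 libraries, 2 per diet, was counted per Ensembl gene. The authors deposited whole-number counts, 1 table per library. The submitters' processing notes name HISAT, featureCounts 1.5.0, DESeq 1.8.3 and GRCm38 without roles or settings, and the sources used here do not give strand and multi-mapping settings. The kit was a stranded one from KAPA, per the labels' protocols. Symbols and positions came from GENCODE M21 on GRCm38 (55240 identifiers with a symbol), and start windows from RefSeq GRCm38.p6.

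Genes were filtered by filterByExpr (edgeR, minimum count 10), scaled by TMM and tested with the quasi-likelihood F test of edgeR 4.0.16 (R 4.3.3) for diet, without a replicate block. P-values were adjusted by Benjamini-Hochberg over all genes tested, and SE is the log2 change over the root of F. CPM use the scaled library sizes. Totals ranged from 56740720 to 64490097 counts. Low counts were 1.61 to 1.7 times as frequent at multiples of 4 as at their neighbours, so the precision of a single count is unsure, and 0 was read against a floor of 12 counts, 3 steps of 4. Floors cover counting error only.

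Members, lists and tests were chosen with earlier results of these data known. Members reaching a mean of 1 CPM in either diet are named with each library's value, apart from results not reported here, and up to 4 called genes per partner list with the smallest p. Alternatives were DESeq2 1.42.0 (its size factors, and its Wald test), limma-voom (limma 3.58.1), no filter, only genes averaging 1 CPM or more, a replicate block, counts divided by 4, library sizes computed after removing acinar and endocrine genes and any above 1% of a library, and leaving out each library; a diet left with 1 library was assumed to vary like the other. The tests were run on simulated counts with known changes, and no error rate from those runs is given.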

Additional observations from a re-analysis of the deposited data

How the results depend on the processing

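The number of members called lower stayed at 5 to 8 under all 12 alternatives against 7 as reported, and all of Cacna1a, Cacna1b, Cacna1d, Cacna2d1 and Cacnb2 kept their calls. The number called higher, 8 as reported, was 5 without the count filter and 2 to 8 when a library was left out, and of these Cacna1i and Scn7a kept their calls under all 12 alternatives. The cause was not tested. Over all genes 2015 to 2174 were lower with a library left out, against 3123. Scaling by DESeq2's size factors moved the median of all genes by 0.01 on the log2 scale.

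Replicate numbers are shared between the diets, but nothing in the labels pairs the libraries, and the deviations of same-numbered libraries had a correlation of -0.02 across genes. With the replicate block 9 members were higher and 7 lower, and 3252 and 2583 of all genes. It lost the call of Ryr1 (edgeR adjusted p = 0.0568), left 14 of 15 falls among the partners, and lost no other call among the called members and the called partners named.

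Per kilobase of exon the log2 ratio of the class sum was -0.030 for the Cav beta subunits (-0.12 in CPM), -0.12 for the Nav pores (-0.19) and 0.013 for all auxiliary genes (-0.24). The difference between the scales follows from the weight of gene length, and the level auxiliary sum per kilobase holds falls and rises together. Members that were not called and turned sign with a library left out had log2 changes from -0.28 to 0.034 for Cacna1g, -0.020 to 0.20 for Cacna2d3, -0.12 to 0.077 for Cacnb1, -0.49 to 0.27 for Cacnb4, -0.82 to 0.19 for Cacng2, -0.23 to 0.72 for Scn2a, -0.0045 to 1.92 for Scn11a and -0.66 to 0.026 for Scn3b, and Cacnb1 was at 0.0051 with only genes averaging 1 CPM or more.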
